A study of Homo sapiens with 6 samples.

Results

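The genes described here code for the enzymes of phase II metabolism, which join a polar group to drugs, hormones, bilirubin and bile acids. They were chosen by gene symbol alone and comprise 57 of the 23228 genes in the deposited tables. The set holds 22 UDP-glucuronosyltransferases (UGT), 13 sulfotransferases (SULT), 17 cytosolic or mitochondrial glutathione S-transferases (GST), 3 microsomal glutathione S-transferases (MGST) and 2 arylamine N-acetyltransferases (NAT). RNA-seq libraries came from Hep3B, a human hepatocellular carcinoma cell line, with 3 libraries of control cells that had received lentiviral non-targeting shRNA and 3 libraries labelled PELP1-KD, whose cells had received lentiviral shRNA against PELP1, a coregulator of nuclear receptors. The treatment text names a pair of PELP1 shRNAs, whereas the titles of the 3 libraries carry sh1 only. Per the labels, PELP1-KD cells were selected with puromycin as stable clones, which were pooled. The labels do not say whether replicates were separate cultures, so p-values measure the spread between these libraries, which may be technical. They name no batch or date.

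Phase II enzymes need an activated donor, namely UDP-glucuronic acid for UGTs, PAPS for SULTs, glutathione for GSTs and acetyl-CoA for NATs. Liver is the organ best known for these reactions. UGTs sit in the membrane of the endoplasmic reticulum, SULTs, NATs and most GSTs in the cytosol, and MGSTs in microsomal or mitochondrial membranes. Many of the genes lie in clusters of recent duplicates, so their exons can be alike or even shared, which bears on how reads are counted.

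Reads on genes per library ranged from 26758363 to 34456542. All 10 hepatocyte markers examined passed the test, of which 3 rose and 7 fell, and their summed normalised reads lay between 873286 and 886969 in control libraries and between 770495 and 785973 in PELP1-KD libraries. Of the 5 cholangiocyte markers 4 were tested and 3 rose, and their sum lay between 21280.4 and 22168 against 32651 and 34584. Of the 5 fibroblast and stellate markers 2 rose (COL1A2 and LUM) and 1 fell, with DCN between 0 and 4 normalised reads. The 1 that fell, PDGFRB, stood at 22.7% of control (log2 fold change -2.13, adjusted p = 9.91e-10, edgeR). The sums (1200.0 to 1251 against 1702 to 1750.3) do not show that fall. Of 4 endothelial markers only PECAM1 was tested, at adjusted p = 0.656 in edgeR (sums 63.0 to 72.8 against 60.7 to 67.6), with CDH5 and KDR at 0 in every library. Of 4 immune markers only CD68 was tested and rose (sums 1311 to 1463 against 1858 to 2004), with PTPRC between 0 and 6. These counts are to be read beside the 53.6% called among all tested genes. All libraries came from the Hep3B line, so the lists describe marker genes and not other cell types in the samples. The part of these markers in the results that follow was not tested. A change in the share of cells within the line and a change in RNA per cell cannot be told apart in bulk RNA.

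PELP1, the targeted gene, was measured first as a check of the labels. Normalised reads, that is reads divided by relative library size, of PELP1 were 4893, 4914 and 5102 for control and 4421, 4825 and 4840.2 for PELP1-KD. The groups did not overlap, yet PELP1 RNA in the second group was still 94.5% of control and the difference did not pass the test (log2 fold change -0.082, SE 0.041, adjusted p = 0.101, edgeR). With the replicate number as a block it passed, at adjusted p = 0.0106 and a log2 fold change of -0.083. The RNA of the target thus lay only slightly below control, which does not bear out a knockdown at the RNA level. PELP1-KD below stands for the libraries labelled so.

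The 57 genes spanned from 0 to 117034 reads per library. Of these, 44 passed edgeR's filter on low counts and were tested. The other 13 held at most 15 reads in any library. Of the 44 tested genes 36 passed an adjusted p of 0.05 (edgeR's quasi-likelihood test with Benjamini-Hochberg adjustment over all 14537 tested genes), 21 higher and 15 lower in PELP1-KD. Among all tested genes 53.6% were called, 26.8% higher and 26.8% lower, and the members' share has to be read against that background. The members' total is also raised by the 9 UGT1A genes, which count the same reads repeatedly and were all called higher. Without them 27 of 35 tested genes were called, 12 higher and 15 lower. UGT2B15, UGT2B17, UGT2B28, SULT1A3 and SULT1A4, all called lower, passed the filter through the control group alone and could be called only as lower. With at least 10 reads in every library 21 of 38 tested genes, UGT1A included, were called higher and 10 lower. The normalised reads of the groups did not overlap for 37 of the 44 genes, against 58.8% of all tested genes. The median log2 fold change was 0.20 over the 44 genes and 0.053 without the UGT1A genes, beside 0.0044 over all tested genes.

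A call with at least a 2-fold change was made for 11 of the 44 genes, 10 lower and 1 higher. Over all tested genes such calls were made for 4.79% in the lower and 2.85% in the higher direction. The 10 genes that fell were UGT2B4, UGT2B7, UGT2B15, UGT2B28, SULT1A1, SULT1A2, SULT1A3, SULT1A4, SULT1E1 and GSTT1, and the 1 that rose was NAT2. SULT1A3 and SULT1A4 carry the same reads and so are 1 measurement. These rows, UGT2B15 and UGT2B28 passed the filter through the control group alone, where they are high, so they could be called only as lower. Restricting the test to genes with at least 10 reads in every library left 7 of the 11, namely UGT2B4, UGT2B7, SULT1A1, SULT1A2, SULT1E1, GSTT1 and NAT2.

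**Figure D1:**
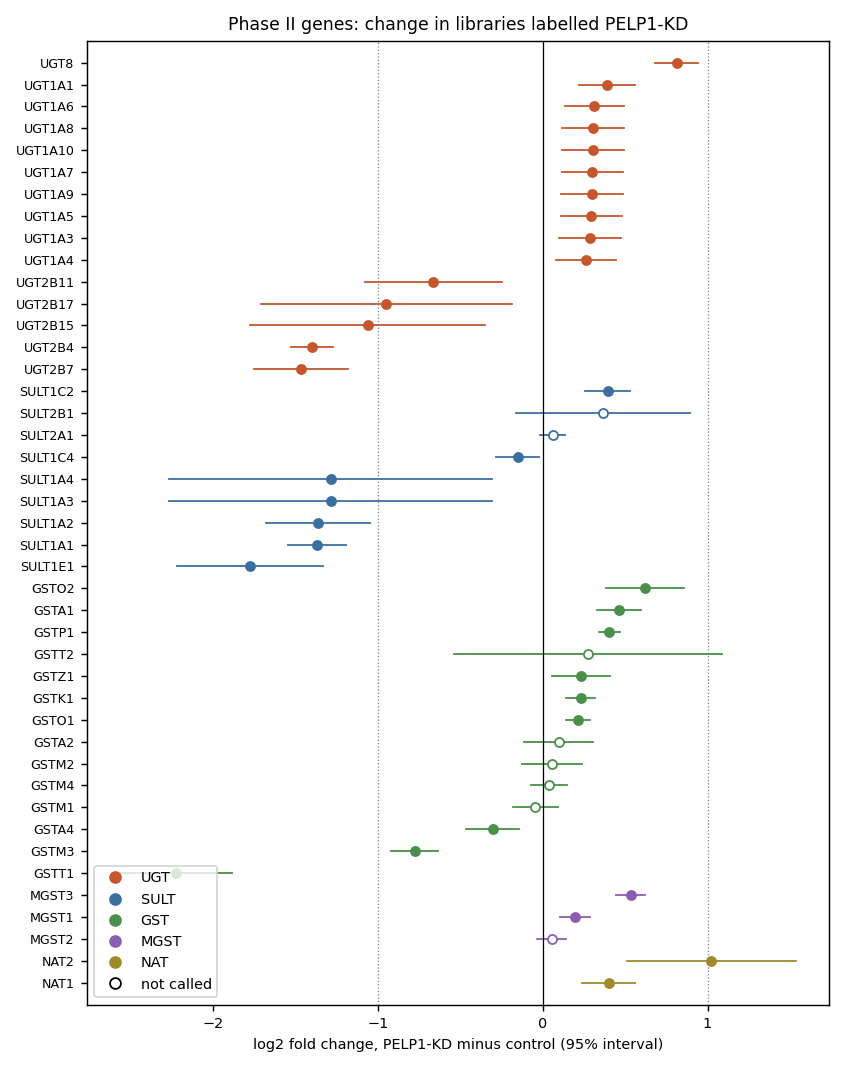
Log2 fold change (PELP1-KD minus control) with its 95% interval for 43 of the 44 tested genes, grouped by family and coloured by it. Filled points passed an adjusted p of 0.05, open points did not, and dotted lines mark a 2-fold change. UGT2B28, almost without reads in PELP1-KD, is left out. Points left of the lower dotted line belong to UGT2B, SULT1 and GSTT1, and the UGT1A points lie close together and rest on largely the same reads.

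By level the families were very unequal. GSTP1, the pi-class enzyme, stood far above the rest with 2824 ± 71.2 RPKM (reads scaled by exon length and library size, mean ± SD, n = 3) in control and 3735 ± 144 RPKM in PELP1-KD. It alone made up between 72.2% and 73.7% of the members' normalised reads in control libraries and between 76.0% and 77.8% in PELP1-KD libraries, with the reads of the UGT1A exons in common counted once. The next levels per length in control were those of MGST1 at 193 ± 9.83 RPKM, GSTO1 at 120.4 ± 0.617 RPKM and GSTK1 at 65.3 ± 0.539 RPKM, followed by the steroid sulfotransferase SULT2A1 at 64.7 ± 0.741 RPKM. GSTK1 and SULT2A1 differed there by less than the SD of SULT2A1. The UGT gene with the highest level was UGT2B4 at 24.2 ± 1.23 RPKM in control. In PELP1-KD it stood at 9.18 ± 0.704 RPKM, below UGT8 at 10.3 ± 0.325 RPKM, so the order of their group means was reversed between the groups.

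**Figure D2:**
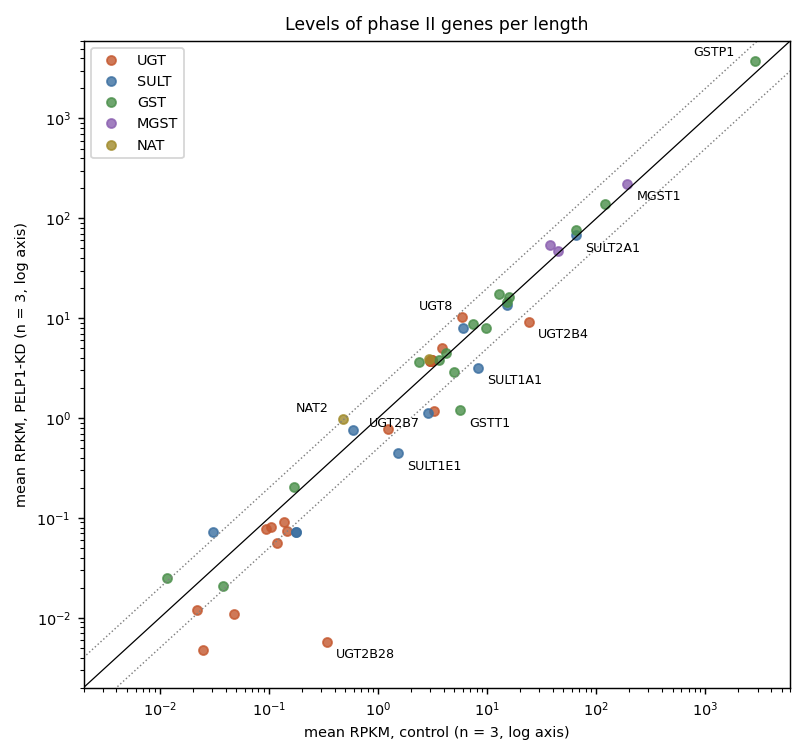
Mean RPKM in control libraries (x axis, log) against PELP1-KD libraries (y axis, log) for the 53 genes with a read in both groups, coloured by family, n = 3 libraries per group. The solid line marks equal levels and dotted lines a 2-fold change. GSTP1 stands alone at the upper right, and UGT2B4, SULT1A1, UGT2B7, GSTT1, SULT1E1 and UGT2B28 lie below the lower dotted line.

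UGT2B4, UGT2B7 and UGT2B11 fell. UGT2 enzymes glucuronidate steroids, bile acids and drugs. In hg19 the 10 UGT2 genes lie with SULT1B1 and SULT1E1 in 1 stretch of chromosome 4, chr4:69402903-70725870, in which the deposited annotation lists 12 genes, all of them in the set. The 4 genes with at least 10 reads in every library, UGT2B4, UGT2B7, UGT2B11 and SULT1E1, were each called lower without overlap of the groups. Among all tested genes 26.8% were called lower and 58.8% had groups without overlap. UGT2B15, UGT2B17 and UGT2B28 were called lower too, but they passed the filter through the control group alone and could enter only as lower, so they add nothing to that count. Of the 5 nearest tested genes on each side of this stretch, 5 were called lower, 2 higher and 3 were not called.

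UGT2B4 (chr4:70345883-70361626, minus strand), which acts on bile acids and catechol oestrogens, carried most UGT2 reads. Its normalised reads were 1579, 1692 and 1533 in control and 643, 623 and 554 in PELP1-KD. Every PELP1-KD library lay below 50% of the lowest control library (log2 fold change -1.40, SE 0.061, adjusted p = 2.21e-13). UGT2B7 (chr4:69962193-69978705, plus strand), known for glucuronidation of morphine and zidovudine, had 174, 209 and 195 normalised reads in control and 79.9, 71.2 and 57.9 in PELP1-KD. It held far fewer reads than UGT2B4, and its groups were also apart (log2 fold change -1.47, SE 0.14, adjusted p = 2.32e-08). The ratio of UGT2B7 to UGT2B4 reads overlapped between the groups (log2 difference -0.074, exact two-sided permutation test p = 0.6, n = 3 per group, 0.8 after adjustment over 4 gene pairs that were chosen after the data were seen).

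UGT2B11 had 75.2, 55.6 and 68.7 normalised reads in control and 50.2, 38.5 and 36.96 in PELP1-KD. The groups stood close to each other without overlap (log2 fold change -0.66, SE 0.20, adjusted p = 0.00823). Of its 50-base exon windows 30.5% also occur in other genes, chiefly UGT2B28. UGT2B28 (chr4:70146217-70160768, plus strand), a steroid-conjugating enzyme, had 16, 26 and 20 reads in control and 0, 0 and 1 in PELP1-KD. It was nearly without reads in all 3 PELP1-KD libraries, so it passed the filter through the control group alone. Of its 63 reads in all, 62 lay in control, a ratio of 55.2 after scaling (exact Clopper-Pearson 95% interval 9.55 to 2220.0, counting error only), with an adjusted p of 3.51e-06 in edgeR's test.

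UGT2B15 (chr4:69403133-69536374) and UGT2B17, both known for androgen glucuronidation, cannot be separated in these counts, because 3698 of the 4148 exon bases of UGT2B17 are also listed for UGT2B15. UGT2B15 had 25, 30 and 18 reads in control and 12, 6 and 13 in PELP1-KD, and UGT2B17 had 22, 24 and 15 against 10, 5 and 13. Both were lower without overlap, with log2 fold changes of -1.06 (SE 0.34, adjusted p = 0.0131) and -0.95 (SE 0.36, adjusted p = 0.0342). DESeq2 called neither of them, at adjusted p = 0.0625 and 0.129. Without control replicate 2, or without PELP1-KD replicate 2, neither was called, and UGT2B17 was also lost without control replicate 1 or PELP1-KD replicate 1.

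The remaining UGT2 genes were too sparse to test. UGT2A1 held between 5 and 11 reads and UGT2A2 between 4 and 9, and the pair shares 1824 exon bases. UGT2A3 had 5, 13 and 11 reads in control against 2, 2 and 2, and UGT2B10 had 4, 6 and 8 against 4, 1 and 4. SULT1B1, which lies among them and sulfates thyroid hormones, held between 1 and 5 reads per library. The reads of the 10 UGT2 genes summed to between 1881 and 2065 normalised reads in control and between 693 and 819 in PELP1-KD, with the reads listed for both UGT2B15 and UGT2B17 or both UGT2A1 and UGT2A2 counted for each. UGT2B4 gave between 81.5% and 82.6% of this sum in control and between 78.5% and 82.0% in PELP1-KD, so its share overlapped between the groups.

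**Figure D3:**
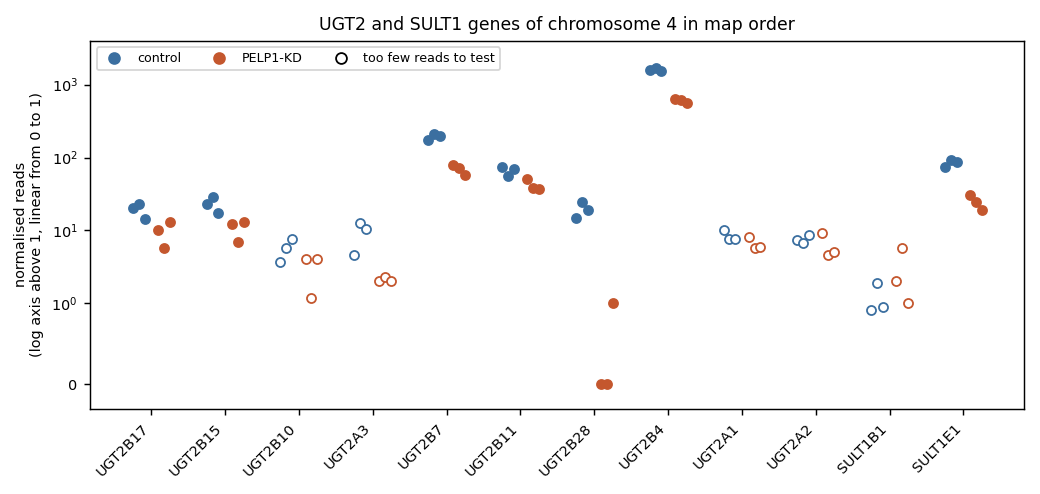
Normalised reads in each library (1 point per library, control at the left and PELP1-KD at the right of each gene) for the 12 genes of the chromosome 4 stretch in map order, on an axis that is logarithmic above 1 and linear from 0 to 1. Open points mark the 5 genes with too few reads to test. In the 4 genes with at least 10 reads in every library every PELP1-KD point lies below every control point. Groups did not overlap for 58.8% of all tested genes. UGT2B15, UGT2B17 and UGT2B28, which drops to 0 or 1, also lie lower. They passed the filter through the control group alone and could enter only as lower.

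The UGT1A locus on chromosome 2 was higher in PELP1-KD. It holds 9 genes of the set, each with a first exon of its own and the same downstream exons, so that the enzymes differ in the part that binds the substrate and share the part that binds UDP-glucuronic acid. The best known member, UGT1A1, conjugates bilirubin. In the deposited annotation between 1478 and 1484 exon bases of each gene are shared with the other 8, that is 56.4% to 63.4% of its length. The first of the shared exons, of 132 bases (hg19 chr2:234675680-234675811, plus strand, read from GRCh37), is shown because a read within it entered the counts of all 9 genes.

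UGT1A shared exon: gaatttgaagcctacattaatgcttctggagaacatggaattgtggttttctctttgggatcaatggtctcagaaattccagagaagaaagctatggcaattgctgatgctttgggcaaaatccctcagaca

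A read in these exons was counted in full for each gene, as the deposited values show, so the 9 rows are close to being 1 measurement. All 9 were called higher, with log2 fold changes from 0.26 (UGT1A4) to 0.39 (UGT1A1). Taking the lowest of the 9 counts as the reads of the exons in common gave 256, 240 and 220 reads in control and 288, 226 and 273 in PELP1-KD. Scaled by library size these were 235, 230.0 and 210 against 295, 264 and 273, which did not overlap (log2 fold change 0.30, SE 0.090, adjusted p = 0.00791, edgeR with the locus split in this way, chosen after seeing the data). The 9 counts summed to 1 row gave a log2 fold change of 0.31 (adjusted p = 3.39e-05), whose p is too small since a read enters up to 9 times. With each shared read counted once it was 0.35 (adjusted p = 0.000957), an alternative also added after the data were seen.

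Reads above that common part can be assigned to a first exon. UGT1A1 had 54, 69 and 60 such reads in control and 92, 67 and 105 in PELP1-KD, or 49.5, 66.1 and 57.2 against 94.2, 78.2 and 105 after scaling. The scaled groups did not overlap (log2 fold change 0.69, SE 0.17, adjusted p = 0.00196). UGT1A6, which conjugates small planar phenols, had 36, 37 and 28 of its own reads in control and 46, 35 and 37 in PELP1-KD. Its scaled values did not overlap, with PELP1-KD above control, but did not pass the test (log2 fold change 0.39, SE 0.22, adjusted p = 0.147). The other 7 genes together had 14, 12 and 19 own reads in control and 7, 4 and 6 in PELP1-KD, too few for a test of any of them. Scaled, these sums were 12.8, 11.5 and 18.1 against 7.17, 4.66 and 6.0, lower in PELP1-KD without overlap. Of the 7 genes, UGT1A4 had 3, 5 and 13 against 0, 2 and 0, and UGT1A3 had 5 in each control library against 4, 2 and 2. The counts of UGT1A3, UGT1A4, UGT1A5, UGT1A7, UGT1A8, UGT1A9 and UGT1A10 therefore consisted almost wholly of shared reads, and their calls say nothing on their own first exons. The calls of UGT1A3 and UGT1A4 were lost under DESeq2 (adjusted p = 0.0539 and 0.0763) and without PELP1-KD replicate 1 (0.0534 and 0.0674), and that of UGT1A4 also without control replicate 3 (0.0502).

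**Figure D4:**
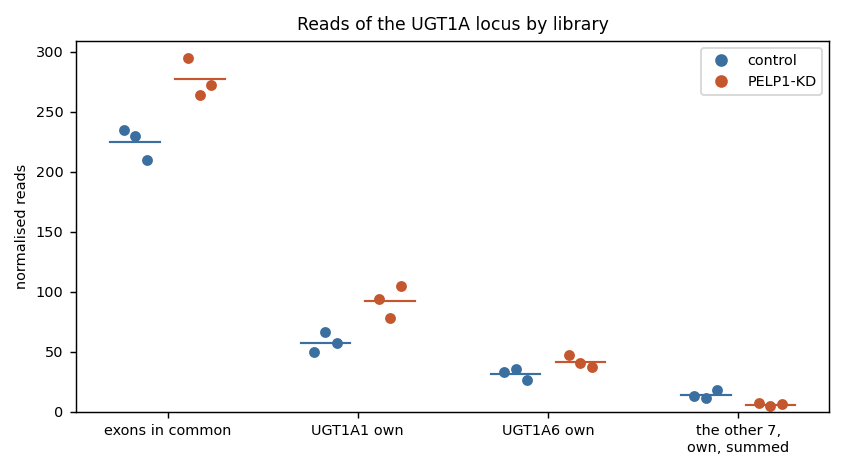
Normalised reads of the UGT1A locus in each library, split into the exons in common and the reads that UGT1A1, UGT1A6 and the other 7 genes hold above them, with 1 point per library and a line at each group's mean (n = 3). The exons in common and UGT1A1 are higher in every PELP1-KD library than in any control library. So is UGT1A6, which did not pass the test. The 7 other genes hold few reads of their own, fewer in every PELP1-KD library than in any control library, and were not tested on them.

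UGT8, on chromosome 4 outside the cluster (chr4:115519611-115598202, plus strand), transfers galactose to ceramide rather than glucuronic acid to drugs. It rose from 608, 686 and 594 normalised reads in control to 1116, 1134 and 1067 in PELP1-KD. All 3 PELP1-KD libraries lay well above the control libraries (log2 fold change 0.81, SE 0.062, adjusted p = 1.15e-09). UGT3A1 and UGT3A2, which use other sugar donors, were not tested. UGT3A1 had 7, 3 and 3 reads in control and 0, 2 and 0 in PELP1-KD, and UGT3A2 had 15, 9 and 9 against 6, 8 and 5.

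Of 13 SULT genes 9 were tested, 6 were lower, 1 was higher and 2 were not called. Over all tested genes 26.8% were called lower and 26.8% higher, 53.6% in all. SULT1A3 and SULT1A4, both among those lower, carry the same reads and passed the filter through the control group alone. They could enter only as lower and add nothing to that count. SULT1E1, SULT1A1 and SULT1A2 fell by over 2-fold, SULT1C2 rose, and SULT2A1, the most abundant member, was not called. SULT1E1, the high-affinity oestrogen sulfotransferase (chr4:70706930-70725870, minus strand), had 74.3, 93.0 and 87.8 normalised reads in control and 30.7, 24.5 and 19.0 in PELP1-KD. The lowest control library held over 2 times the reads of the highest PELP1-KD library (log2 fold change -1.78, SE 0.21, adjusted p = 6.67e-07).

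SULT1A1 (chr16:28616908-28634907, minus strand), the main phenol sulfotransferase of liver, had 565, 588 and 595 normalised reads in control and 213, 204 and 257 in PELP1-KD. Its neighbour SULT1A2 (chr16:28603264-28608391, minus strand) had 138, 118 and 123 against 49.1, 45.5 and 51.9. In both genes PELP1-KD libraries held less than 50% of the lowest control library, with log2 fold changes of -1.37 (SE 0.085, adjusted p = 4.99e-11) and -1.36 (SE 0.15, adjusted p = 2.45e-07). Their ratio of reads overlapped between the groups (log2 difference -0.015, exact two-sided permutation test p = 0.9 before and after adjustment, n = 3 per group). Of the 50-base exon windows of SULT1A2 19.6% also occur in other genes, chiefly SULT1A1, so the pair is not fully independent.

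SULT1A3 and SULT1A4, known for sulfating dopamine, are a pair of identical copies on the short arm of chromosome 16 (listed jointly at chr16:29471207-30215650), and each row held the same 28, 11 and 11 reads in control and 4, 6 and 8 in PELP1-KD. Control replicate 1 stood apart from the other control libraries, which lay only just above the highest PELP1-KD library. Both rows passed the filter through the control group alone. They were called lower (log2 fold change -1.29, SE 0.47, adjusted p = 0.0268), but without control replicate 1 the log2 fold change was -0.72 and adjusted p = 0.262. Leaving out PELP1-KD replicate 1 or 2 (adjusted p = 0.0986 and 0.0559) or using DESeq2 (adjusted p = 0.0902) also ended the call.

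SULT2A1, which sulfates DHEA and bile acids, was the SULT gene with the highest level. It had 4092, 4007 and 4018 normalised reads in control and 4245, 4119 and 4272 in PELP1-KD. The groups did not overlap, but the difference was small and did not pass the test (log2 fold change 0.061, SE 0.037, adjusted p = 0.181, 95% interval -0.017 to 0.14). It gave between 64.9% and 65.2% of all SULT reads in control and between 69.7% and 71.3% in PELP1-KD, with the identical SULT1A3 and SULT1A4 rows counted once. SULT1C4 came next per length (15.1 ± 0.184 RPKM in control, 13.6 ± 0.939 in PELP1-KD). Its normalised reads were 801, 782 and 789.8 against 751, 728 and 657, a difference of -0.15 on the log2 scale that barely passed the test (SE 0.062, adjusted p = 0.0438) and was not called by DESeq2 (adjusted p = 0.0951), when genes with low counts were kept (adjusted p = 0.0504) or without any 1 library other than PELP1-KD replicate 1 (adjusted p between 0.0718 and 0.209). SULT1C2 was the only SULT gene called higher (log2 fold change 0.39, SE 0.065, adjusted p = 3.66e-05), and SULT2B1, which sulfates cholesterol, held between 22 and 34 reads and was not called (95% interval -0.17 to 0.90). SULT1C3, SULT4A1 and SULT6B1 had 0 reads in every library, which allows up to 3 reads in each.

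**Figure D5:**
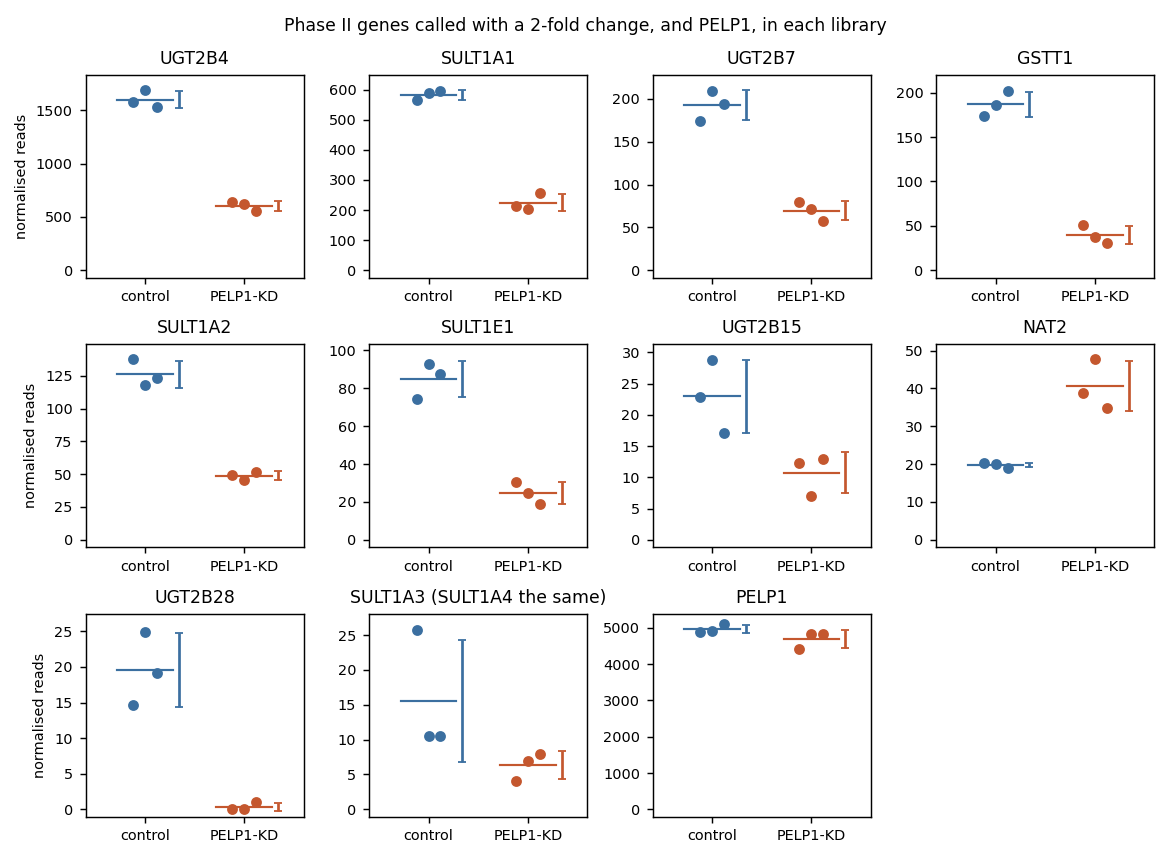
Normalised reads in each library (points), the group mean (line) and SD (bar, n = 3) for the genes called with a 2-fold change and for PELP1, each panel with its own linear axis that includes 0. SULT1A4, identical to SULT1A3, is not drawn. NAT2 is the 1 member panel in which PELP1-KD is higher, and control replicate 1 of SULT1A3 stands apart from the other control libraries.

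The cytosolic and mitochondrial glutathione S-transferases comprised 17 genes, of which 14 were tested. Of these 6 were higher, 3 were lower and 5 were not called, and the median log2 fold change was 0.15. The 64.3% called and the 57.1% whose groups did not overlap were near the 53.6% and 58.8% of all tested genes, so these counts are no result about the family. GSTP1, the most abundant, had 84113, 83503 and 87480.2 normalised reads in control and 108231, 112213 and 116893 in PELP1-KD. Every PELP1-KD library lay above every control library, a rise of 0.40 on the log2 scale (SE 0.03, adjusted p = 1.11e-09). Its promoter is shown because GSTP1 sets most of the members' reads and because its window holds an antioxidant response element core. The letters TGACNNNGC, in capitals, begin 66 bases before the start (RefSeq, GRCh38.p14, chr11:67583562-67583861, plus strand, 250 bases before to 50 after the start).

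GSTP1 promoter: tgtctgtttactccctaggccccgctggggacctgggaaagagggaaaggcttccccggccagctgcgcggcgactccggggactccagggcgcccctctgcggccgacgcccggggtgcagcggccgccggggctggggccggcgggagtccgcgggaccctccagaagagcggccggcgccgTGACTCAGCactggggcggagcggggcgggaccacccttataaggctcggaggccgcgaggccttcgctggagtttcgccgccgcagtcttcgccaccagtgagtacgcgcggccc

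GSTO1, the omega-class member with the next level, rose from 4936, 4985 and 4949.9 to 5757, 5681 and 5790.0 normalised reads. Although small, the rise was well beyond the spread between libraries (log2 fold change 0.21, SE 0.035, adjusted p = 3.67e-05). Its neighbour GSTO2 rose too, from 120.1, 117 and 120.2 to 165, 184 and 201 (log2 fold change 0.62, SE 0.11, adjusted p = 0.000121). The mitochondrial and peroxisomal GSTK1 was higher (log2 fold change 0.23, adjusted p = 0.000103). GSTZ1, an enzyme of tyrosine breakdown, was also called higher at 0.23, but its groups overlapped, and the call was lost under DESeq2 (adjusted p = 0.0648) and without control replicate 1 or 2 or PELP1-KD replicate 2 or 3 (adjusted p between 0.0514 and 0.134).

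GSTT1, the theta-class gene known for a common deletion in human populations (chr22:24376139-24384284, minus strand), showed the largest fall of the GST genes tested. Its normalised reads were 173, 186 and 201 in control and 51.2, 37.3 and 31.0 in PELP1-KD. The lowest control library held over 3 times the reads of the highest PELP1-KD library (log2 fold change -2.22, SE 0.16, adjusted p = 5.51e-10), and none of its 50-base exon windows occurs in another gene. GSTT2, of whose exon windows 92.9% also occur in its copy GSTT2B, held between 6 and 18 reads. It was not called (95% interval -0.54 to 1.09), nor were the summed reads of GSTT2 and GSTT2B (log2 fold change 0.54, SE 0.34, adjusted p = 0.189).

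In the mu-class cluster on chromosome 1 only GSTM3 was called of 4 tested. GSTM3 had 627, 643 and 665 normalised reads in control and 379.8, 359 and 388 in PELP1-KD. The groups lay far apart (log2 fold change -0.78, SE 0.068, adjusted p = 9.39e-09). GSTM1, GSTM2 and GSTM4 were not called, with 95% intervals of -0.18 to 0.09, -0.12 to 0.24 and -0.071 to 0.15. In GSTM1 60.9% of exon windows also occur in other genes, chiefly GSTM2. The ratio of GSTM3 to GSTM4 reads was 0.673, 0.646 and 0.701 in control and 0.377, 0.368 and 0.400 in PELP1-KD, a log2 difference of -0.82 without overlap. An exact two-sided permutation test gave p = 0.1, the smallest that 3 against 3 libraries allow, and 0.2 after adjustment over the 4 gene pairs compared. GSTM5 held between 0 and 4 reads.

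The alpha-class genes on chromosome 6 include GSTA1 and GSTA2, a pair with nearly equal promoters of which 1 was called. GSTA1, the main alpha-class enzyme of liver, had 507, 520.4 and 491 normalised reads in control and 689, 681 and 720.1 in PELP1-KD. GSTA2 had 171, 175 and 173 against 197, 184 and 174. The groups were apart for GSTA1 (log2 fold change 0.46, SE 0.063, adjusted p = 4.28e-06) and overlapped for GSTA2 (log2 fold change 0.097, SE 0.10, adjusted p = 0.438, 95% interval -0.11 to 0.31). The ratio of GSTA1 to GSTA2 reads was 2.97, 2.97 and 2.85 in control and 3.51, 3.70 and 4.14 in PELP1-KD. These ratios did not overlap (log2 difference 0.37, exact two-sided permutation test p = 0.1, the smallest possible, adjusted p = 0.2 over 4 pairs). Of the exon windows of GSTA1 18.9% also occur in GSTA2, and of those of GSTA2 17.9% in GSTA1. The promoters are shown since they differ at only 12 of 300 bases, which are in capitals (RefSeq, GRCh38.p14, GSTA1 chr6:52803767-52804066 and GSTA2 chr6:52763426-52763725, both on the minus strand).

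GSTA1 promoter: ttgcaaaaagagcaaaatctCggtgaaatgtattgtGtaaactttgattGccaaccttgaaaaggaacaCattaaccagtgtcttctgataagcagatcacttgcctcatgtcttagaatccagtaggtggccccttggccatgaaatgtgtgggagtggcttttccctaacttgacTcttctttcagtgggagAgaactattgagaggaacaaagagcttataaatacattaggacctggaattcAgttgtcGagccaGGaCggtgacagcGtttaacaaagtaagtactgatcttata
GSTA2 promoter: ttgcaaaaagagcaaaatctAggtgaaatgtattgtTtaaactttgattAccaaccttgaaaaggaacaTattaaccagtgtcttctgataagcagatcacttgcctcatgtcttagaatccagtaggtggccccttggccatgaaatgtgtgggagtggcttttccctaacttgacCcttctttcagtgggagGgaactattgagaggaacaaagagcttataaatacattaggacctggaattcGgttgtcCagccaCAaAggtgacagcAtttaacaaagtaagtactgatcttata

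GSTA4, which acts on the lipid aldehyde 4-hydroxynonenal, fell from 433, 404 and 398 to 341, 349 and 312 normalised reads, so the cluster held changes in both directions (log2 fold change -0.30, SE 0.077, adjusted p = 0.00253). GSTA3 and GSTA5 held at most 2 reads in any library.

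The microsomal enzymes belong to another protein family (MAPEG) and were all well expressed. MGST1 had 7109, 7113 and 6501 normalised reads in control and 8154, 8114 and 7465 in PELP1-KD. Its groups did not overlap, although replicate 3 was the lowest in each (log2 fold change 0.20, SE 0.043, adjusted p = 0.000674). MGST3 rose from 1771, 1840.2 and 1768 to 2587, 2674 and 2530.0, again without overlap (log2 fold change 0.53, SE 0.043, adjusted p = 2.46e-09). MGST2 had 1881, 1888 and 1886 against 1980.0, 1956 and 1932 and was not called (log2 fold change 0.053, SE 0.042, adjusted p = 0.302, 95% interval -0.034 to 0.14).

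Both arylamine N-acetyltransferases rose. They inactivate drugs such as isoniazid and activate aromatic amines, NAT2 chiefly in liver and gut and NAT1 in most tissues. NAT1 (chr8:18027971-18081198, plus strand) had 303, 277 and 280.5 normalised reads in control and 381, 382 and 374 in PELP1-KD. The groups did not overlap (log2 fold change 0.40, SE 0.077, adjusted p = 0.00021). NAT2 (chr8:18248755-18258723, plus strand), far lower at 0.478 ± 0.0149 RPKM in control, had 22, 21 and 20 reads in control and 38, 41 and 35 in PELP1-KD. It was the only member called higher with a 2-fold change (log2 fold change 1.02, SE 0.24, adjusted p = 0.00157), and without 1 library its log2 fold change lay between 0.90 and 1.12.

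The genes that supply and use the same donors were examined from a list of 49. Of these 39 were tested, 12 were higher, 17 lower and 10 not called, that is 74.4% called against 53.6% among all tested genes, and the median log2 fold change was -0.069. With the replicate number as a block 33 of the 39 were called. The share of all tested genes called under that block is not given here, so the change in count is no result about the list. Of 4 genes for UDP-glucuronic acid 1 was lower and 3, among them UGDH, which makes the donor (-0.0032 on the log2 scale, adjusted p = 0.957), were not called. Of 6 genes for sulfate activation and transport 3 were lower and 1 higher, and of 5 genes for glutathione supply 2 were higher and 2 lower. Of 5 tested genes for amino acid conjugation 3 were lower and 1 higher. Among these calls BAAT, ACSM2A and ACSM3 barely passed (adjusted p = 0.0475, 0.0486 and 0.0453, edgeR). The groups overlapped for ACSM2A and ACSM3.

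A 2-fold call was made for 4 of the 39 tested genes of the list, 2 higher and 2 lower. Over all tested genes such calls were made for 2.85% in the higher and 4.79% in the lower direction. The count is too small to be a result about the list. CHAC1, which degrades glutathione, had 279, 321 and 312 normalised reads in control and 119.8, 151 and 131 in PELP1-KD, all lower (log2 fold change -1.19, SE 0.11, adjusted p = 1.11e-08). DPEP1, a dipeptidase of glutathione breakdown, had 26, 24 and 23 reads in control and 2, 3 and 4 in PELP1-KD (log2 fold change -2.81, SE 0.42, adjusted p = 1.11e-05). It passed the filter on low counts through the control group alone and so could be called only as lower. Of the methyl-conjugating enzymes NNMT, which methylates nicotinamide, rose from 194, 180.2 and 168 to 362, 412 and 458 (log2 fold change 1.18, SE 0.098, adjusted p = 4.04e-09). TPMT, HNMT and AS3MT, methyltransferases named after their values were seen, were each called lower, with log2 fold changes of -0.30, -0.39 and -0.35. PTGES, a prostaglandin synthase of the same family as the MGSTs, rose from 68.8, 42.2 and 59.1 to 131, 112 and 114 (log2 fold change 1.07, SE 0.17, adjusted p = 2.37e-05). The epoxide hydrolase EPHX1 and the quinone reductases NQO1 and NQO2, also named after their values were seen, were all called higher (log2 fold changes 0.24, 0.61 and 0.14).

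Of 23 transcription factors and partners known to act on phase II genes 21 were tested, 6 were higher, 7 lower and 8 not called, with none at 2-fold. The 61.9% called lay near the 53.6% of all tested genes, so the count is no result about the regulators, and the genes below are given for their values. The lowest p among those higher were of CEBPB (log2 fold change 0.59, SE 0.039, adjusted p = 1.56e-10), HNF4A (log2 fold change 0.23, adjusted p = 1.37e-05) and CDX2 (0.25, adjusted p = 9.71e-05). Among those lower were RXRA (log2 fold change -0.38, SE 0.04, adjusted p = 1.13e-07), the partner of several nuclear receptors, and KEAP1 (log2 fold change -0.24, adjusted p = 7.62e-05), the inhibitor of NFE2L2. NFE2L2, which binds antioxidant response elements, changed by -0.12 (adjusted p = 0.0115), and AHR, the dioxin receptor, was not called (0.051, adjusted p = 0.242). NFE2L2 and AHR are given because their motifs were searched. ESR1 and NR1I3 held at most 1 read in any library.

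Promoter windows of 300 bases were found in RefSeq (GRCh38.p14) for 45 of the 57 genes. The core TGACNNNGC, searched on both strands, occurred in windows of 11 of the 45 genes and in 13.4% of 35116 windows of all genes. Of these 11, GSTP1, GSTO1, MGST1 and SULT1C2 were called higher, GSTA4 and UGT2B11 were called lower, GSTM1 was not called, and GSTM5 and UGT2B10 were not tested. UGT1A5 and UGT1A6 also hold the core, but their counts rest mostly on shared exons, and no call was made on the reads of their own first exons. The core GCGTG, to which the dioxin receptor binds, occurred in windows of 15 genes and in 36.5% of all windows. Some genes have several windows, so the shares of genes and of windows have different bases. A match is a description of letters only.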

How the data were processed

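Values were taken from 6 libraries, 1 table each. The authors deposited estimated counts per gene without normalization. Per the file headers these were made with featureCounts 1.5.0-p1 on hg19 exons, strand-specific, with multi-mapping reads counted as fractions and a mapping quality of at least 2. Per the labels' processing notes reads were aligned with HISAT2, whereas the study's methods name TopHat2 and HTSeq, and the sources also differ on RNA extraction and library kit. In the deposited values a read in exons of several genes was counted in full for each. Estimated counts were rounded and tested with edgeR 4.0.16 (R 4.3.3; filterByExpr, TMM, robust glmQLFit and glmQLFTest, 14537 of 23228 genes tested, Benjamini-Hochberg adjustment, thresholds of 0.05 and 2-fold). The SE was derived from each log2 fold change and its F statistic, and had a median of 0.063 over genes. Intervals use the test's degrees of freedom.

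DESeq2 1.42.0, other scalings and filters, unrounded counts, left-out libraries and a replicate block were tried as alternatives. Same-numbered control and PELP1-KD libraries deviated together from their group means over 6370 genes (correlations 0.336, 0.247 and 0.666). The numbers come from the titles. Only the replicate block used them to pair the libraries, and the main test did not. Control 2 with PELP1-KD 1 (0.418) and control 1 with PELP1-KD 2 (0.244) correlated as well, and both replicates 3 stood apart from the others, so the pairing by number is clear for replicate 3 alone. Replicates of a group differed by more than sampling noise (chi-square over its degrees of freedom from 1.92 to 6.76) and were kept as separate samples. Exon windows of 50 bases were compared with all exons of the annotation. The fitting script was tested on simulated data. The genes named were PELP1, members called with a 2-fold change, the 2 members with the highest mean RPKM per family, members that share sequence, and of the other lists those with a 2-fold change or otherwise the 3 smallest p per direction. Other members and list genes were named after their values were seen. Some results are not reported here. The members, lists and motifs were chosen with earlier results of these data known. The authors' cell assays were not used here.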

Additional observations from a re-analysis of the deposited data

How the results depend on the processing

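With edgeR, the number of the set's genes called was 36 under DESeq2's size factors, upper-quartile scaling, unrounded counts, no filter and the replicate block. DESeq2 itself called 28, all among the 36, an adjusted p of 0.01 left 28, and a minimum of 10 reads in every library left 31 of 38 tested. With at least 10 reads in every library the 2-fold calls were 7 instead of 11, since 6 members were no longer tested. With no filter SULT1C4 was lost (adjusted p = 0.0504, edgeR), so the 36 called there were not all the same genes. The 2-fold calls with no filter were 12. Leaving out 1 library gave between 31 and 35 calls and between 8 and 13 at 2-fold. PELP1 had a log2 fold change of -0.083 with the replicate block and passed the test there (adjusted p = 0.0106). Leaving out 1 library gave it between -0.10 and -0.040, and it passed without PELP1-KD replicate 3 (adjusted p = 0.018). The replicate block changed no other call among the members and called 33 of the 39 donor and conjugation genes instead of 29. No share of all tested genes called under the block is given beside that count. GSTT2, not called, ranged from -0.079 to 0.62 when 1 library was left out. The scalings moved the median of all tested genes by less than 0.01 and turned no direction of a called member. At 26758363 to 34456542 reads per library depth limits what can be said of members with under 10 reads. Among them UGT3A1 held 13 reads in control against 2 in PELP1-KD. That is a ratio of 5.79 after scaling (exact Clopper-Pearson 95% interval 1.31 to 52.8, counting error only).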
